A study of Mus musculus with 6 samples.

Results

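Hox genes encode homeodomain transcription factors that give cells their position along the head-to-tail axis of the embryo. In mice they lie in 4 clusters, Hoxa, Hoxb, Hoxc and Hoxd, and each gene carries the number of its paralog group, from 1 for the gene expressed furthest towards the head to 13 for the one furthest towards the tail. In embryonic stem cells the clusters are known as textbook targets of Polycomb repression, which marks their promoters with methylated lysine 27 of histone H3, and they open in order when cells differentiate or meet retinoic acid. Members were the probe sets on the array whose annotation names a single Hox gene of the 4 clusters, antisense transcripts left out, and each gene stands for the probe set of it that was brightest on average over the 6 arrays. This gave 33 genes, on 48 probe sets, of 18193 genes on the array: 9 of Hoxa, 9 of Hoxb, 7 of Hoxc and 8 of Hoxd.

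The 6 Affymetrix Mouse Genome arrays measured RNA from R1 cells, a mouse embryonic stem cell line. All cells had been infected with a lentivirus and sorted for the green fluorescent protein GFP. On 3 arrays the virus carried the first shRNA against KIAA1718, a protein encoded by Kdm7a that removes methyl groups from lysines 9 and 27 of histone H3. On the other 3 it carried an shRNA against luciferase, a firefly enzyme, as the control. Each group rests on a single shRNA sequence, and its effects on other genes cannot be told apart from those of its target. The labels do not say whether the arrays of a group came from separate infections, so the p-values cover the spread between these arrays alone, and that spread may be technical. Levels are given as normalized signal, the deposited intensity after all arrays were brought to the same distribution. Differences are log2(normalized signal + 16), KIAA1718 shRNA1 minus luciferase shRNA, with a standard error (SE) and a p from limma adjusted over all tested probe sets.

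Kdm7a itself had 31.8 ± 9.69 in KIAA1718 shRNA1 cells and 38.2 ± 1.12 in luciferase shRNA cells (SD, n = 3 each), a difference of -0.20 that did not pass the threshold (limma adjusted p = 0.533), so the target gives no check of the labels. KIAA1718 shRNA1 replicate 1, at 42.2, lay above every luciferase shRNA array, and leaving out 1 array moved the difference between -0.35 (without that array) and -0.06 (without KIAA1718 shRNA1 replicate 2). The embryonic stem cell genes Pou5f1, Sox2 and Nanog averaged 1022, 1376 and 699 in KIAA1718 shRNA1 cells and 1140, 1457 and 955 in luciferase shRNA cells (normalized signal, n = 3 each), all above 64.5, the 75th percentile of the mean signals of probe sets. Deposited median signals ran from 9.58 to 13.3 across arrays. Of 12740 genes tested, 620 passed an adjusted p of 0.05, 341 higher and 279 lower in KIAA1718 shRNA1 cells, and the count was 161 to 525 when 1 array was left out. With the replicate number as a block, 1000 genes passed.

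Promoters known from RefSeq (GRCm38.p6) were listed for 19 of the 33 genes, 21 start sites in all, and 11 of those genes were tested. They are shown because CG dinucleotides mark the unmethylated, Polycomb-bound islands that Hox promoters are known for. In the 250 bases before the start site the 21 Hox promoters held 2 to 35 CG dinucleotides with a median of 13, against a median of 6 over 32851 promoters. The sequences below run 5′ to 3′ along the gene, with each CG, a motif that reads the same on both strands, in capitals. Among the 11 tested members with a listed promoter, Hoxa9 and Hoxd13 have the fewest and the most CG, 3 and 31. Hoxa3, with 18, has the lowest difference among these 11 members.
Hoxa9, chr6:52227371-52227620, minus strand: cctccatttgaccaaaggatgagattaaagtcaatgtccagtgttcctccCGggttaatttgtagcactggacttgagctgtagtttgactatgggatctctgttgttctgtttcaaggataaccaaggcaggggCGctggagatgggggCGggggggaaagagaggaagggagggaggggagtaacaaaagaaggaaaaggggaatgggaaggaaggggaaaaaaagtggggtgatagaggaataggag
Hoxa3, chr6:52213068-52213317, minus strand: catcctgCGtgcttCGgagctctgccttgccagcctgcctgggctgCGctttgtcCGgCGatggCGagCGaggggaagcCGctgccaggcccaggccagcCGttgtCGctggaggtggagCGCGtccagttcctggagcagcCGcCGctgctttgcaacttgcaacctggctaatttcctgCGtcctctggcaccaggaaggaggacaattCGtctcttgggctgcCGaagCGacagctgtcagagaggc
Hoxd13, chr2:74667975-74668224, plus strand: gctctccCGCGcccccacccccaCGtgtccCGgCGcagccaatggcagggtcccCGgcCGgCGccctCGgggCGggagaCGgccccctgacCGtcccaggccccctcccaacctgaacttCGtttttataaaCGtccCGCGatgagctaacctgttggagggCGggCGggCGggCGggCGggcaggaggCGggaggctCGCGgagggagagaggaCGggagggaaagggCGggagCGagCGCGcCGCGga
At least as many CG dinucleotides stood in 71.0% of all promoters for Hoxa9, in 21.7% for Hoxa3 and in 5.19% for Hoxd13. The arrays measured RNA and not the promoters, so the counts are a description of the sequence alone.

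The 33 genes had low signals. A signal of 6.65, the mean below which the dimmest 40% of probe sets lay, was passed by 22 members, and no member reached 64.5, the 75th percentile of mean signals, which 37.4% of all genes exceeded. The tested members were 7 of the 9 Hoxa genes (Hoxa2, Hoxa3, Hoxa4, Hoxa5, Hoxa9, Hoxa10 and Hoxa11), 7 of the 9 Hoxb genes (Hoxb1, Hoxb2, Hoxb3, Hoxb4, Hoxb6, Hoxb9 and Hoxb13), 5 of the 7 Hoxc genes (Hoxc5, Hoxc6, Hoxc8, Hoxc9 and Hoxc10) and 3 of the 8 Hoxd genes (Hoxd8, Hoxd9 and Hoxd13). The brightness of a probe set depends on its own probes, so levels of different Hox genes are not ranked. Hoxc9 and Hoxd9 passed the minimum through the luciferase shRNA arrays alone. The main counts over the 22 (members below 0, apart or at an unadjusted p) are therefore also given over all 33, without the minimum. Counts by cluster, by paralog group and in the alternatives are over tested members alone.

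None of the 22 tested Hox genes changed by the adjusted test, against 4.87% of all tested genes, of which 2.19% were lower and 2.68% higher. With the replicate number as a block none passed either, against 7.85% of all genes, 3.78% lower and 4.07% higher. Most members nevertheless lay below 0: 18 of 22 had a negative difference, where 49.8% of all genes did, and their median was -0.20, against 0.00113 for all tested genes. Without the minimum on signal 25 of the 33 genes lay below 0, with a median of -0.16, and again none passed. In bulk RNA a lower signal from fewer cells that express a gene and from less RNA per cell cannot be told apart. At an unadjusted p below 0.05, 3 members were lower (Hoxc10, Hoxc8 and Hoxb13) and none higher, a share of 3 in 22 beside 10.7% of all genes that were lower by the same rule. Without the minimum 5 of the 33 genes were lower at that p (Hoxc4 and Hoxb5 as well) and none higher, beside 8.28% of 18193 genes that were lower. A share of 50.2% of those 18193 genes lay below 0.

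**Figure D1:**
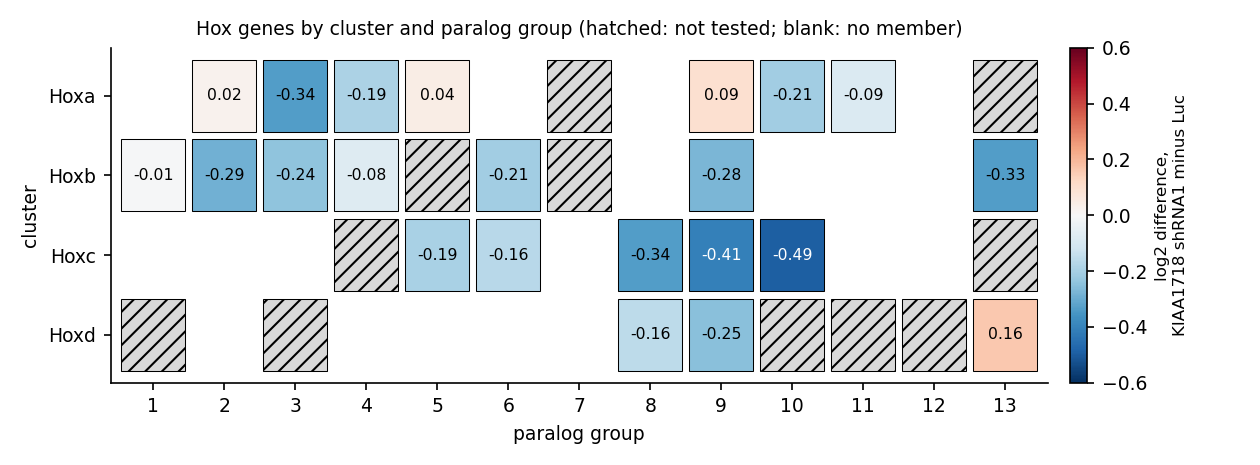
Map of the Hox genes, with the paralog group on the horizontal axis and the cluster on the vertical axis; the number and colour of each cell give the log2 difference, KIAA1718 shRNA1 minus luciferase shRNA. All 5 tested Hoxc genes and all 7 tested Hoxb genes are below 0, from -0.49 for Hoxc10 to -0.01 for Hoxb1. Hoxa2, Hoxa5, Hoxa9 and Hoxd13 are above 0, and hatched cells are the 11 genes not tested.

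In the Hoxc cluster all 5 tested genes lay below 0, with a median difference of -0.34, and none passed. Hoxc9, which passed the minimum through the luciferase shRNA arrays alone, is among them. Hoxc10, which marks lumbar motor neurons and hindlimb tissue in the embryo, had a normalized signal of 7.38, 11.0 and 7.67 on the KIAA1718 shRNA1 arrays, against 13.1, 20.5 and 23.2 on the luciferase shRNA arrays. The groups did not overlap, as was the case in this direction for 13.4% of all genes. The difference was -0.49 ± 0.15 (log2 ± SE) with a 95% interval of -0.82 to -0.17 and a limma adjusted p of 0.0954, or 0.0642 with the replicate number as a block.

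Hoxc8, a gene of the brachial spinal cord and the rib cage, had 30.3, 33.3 and 35.4 on the KIAA1718 shRNA1 arrays, against 38.8, 48.0 and 51.3 on the luciferase shRNA arrays. Every KIAA1718 shRNA1 array lay below every luciferase shRNA array, and the difference of -0.34 ± 0.13 had an adjusted p of 0.190. Hoxc9, which sets the thoracic identity of motor neurons, had 2.96, 3.18 and 8.19 on the KIAA1718 shRNA1 arrays, against 3.57, 12.4 and 21.1 on the luciferase shRNA arrays. Here luciferase replicate 1 lay within the range of the KIAA1718 shRNA1 arrays, and the difference of -0.41 ± 0.21 (adjusted p = 0.325) ran from -0.66 without luciferase replicate 1 to -0.19 without luciferase replicate 3. The more head-ward Hoxc5 and Hoxc6 differed by -0.19 and -0.16 (adjusted p = 0.550 and 0.556), with groups that overlapped, and without 1 array they ran from -0.28 to -0.05 and from -0.24 to -0.10.

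In the Hoxb cluster all 7 tested genes were below 0, with a median of -0.24, and none passed. Hoxb13, the tail-most Hoxb gene and a regulator of tail length and prostate, had 9.82, 7.62 and 9.0 on the KIAA1718 shRNA1 arrays, against 13.4, 12.4 and 20.6 on the luciferase shRNA arrays. Its groups did not overlap, and luciferase replicate 3 stood above the other luciferase shRNA arrays. The difference was -0.33 ± 0.14 (adjusted p = 0.226), and -0.22 without that array, against -0.41 without luciferase replicate 2.

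Hoxb2, a gene of the embryonic hindbrain, had 22.4, 37.0 and 30.9 on the KIAA1718 shRNA1 arrays, against 37.7, 34.7 and 48.1 on the luciferase shRNA arrays. KIAA1718 shRNA1 replicate 2 lay above the lowest luciferase shRNA array, and the difference was -0.29 ± 0.15 (adjusted p = 0.345), running from -0.40 without KIAA1718 shRNA1 replicate 2 to -0.16 without KIAA1718 shRNA1 replicate 1. Hoxb9, which acts with its paralogs in the thoracic skeleton, had 5.01, 13.2 and 8.98 on the KIAA1718 shRNA1 arrays, against 12.9, 10.9 and 18.8 on the luciferase shRNA arrays. These groups overlapped too, with a difference of -0.28 ± 0.16 (adjusted p = 0.391), which was -0.39 and -0.16 without the same 2 arrays. Hoxb3, Hoxb6 and Hoxb4, a gene known for expanding blood stem cells, differed by -0.24, -0.21 and -0.08, and Hoxb3 ran from -0.45 to -0.09 without 1 array. Hoxb1, the earliest Hoxb gene to answer retinoic acid, had 11.8 ± 1.56 in KIAA1718 shRNA1 cells and 12.0 ± 2.46 in luciferase shRNA cells (SD, n = 3 each), and its interval of -0.30 to 0.28 around -0.01 leaves room for changes of either sign.

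**Figure D2:**
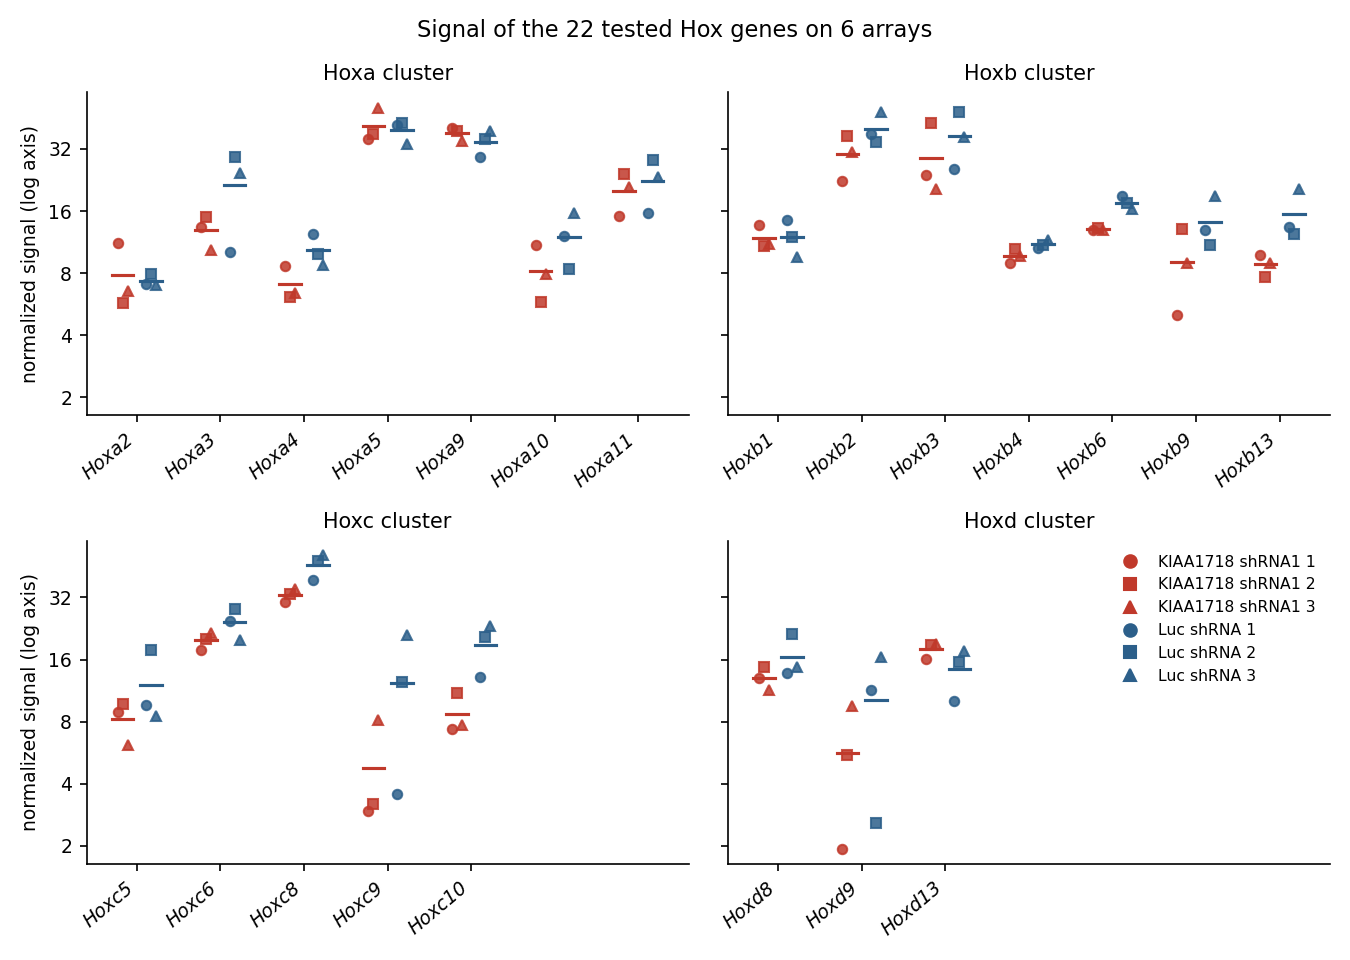
Normalized signal (vertical log axis) of the 22 tested Hox genes on each array, by cluster, with KIAA1718 shRNA1 arrays in red, luciferase shRNA arrays in blue, a marker shape for each replicate number and a line at each group mean. Hoxc10, Hoxc8, Hoxb13, Hoxb6, Hoxb4 and Hoxa4 are the 6 genes whose red points all lie below their blue points, and no gene has all red points above the blue ones.

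The Hoxa cluster held 4 tested genes below 0 and 3 above, with a median of -0.09. Hoxa3, needed for the thymus and other structures of the throat, had 13.5, 15.0 and 10.3 on the KIAA1718 shRNA1 arrays, against 10.2, 29.4 and 24.6 on the luciferase shRNA arrays. Luciferase replicate 1 had the lowest value of all 6 arrays, and the difference was -0.34 ± 0.19 (adjusted p = 0.381), running from -0.58 without luciferase replicate 1 to -0.18 without luciferase replicate 2. Hoxa4, a gene of the neck vertebrae, had 8.71, 6.10 and 6.43 on the KIAA1718 shRNA1 arrays, against 12.4, 9.88 and 8.73 on the luciferase shRNA arrays. The groups met without overlapping, at 8.71 and 8.73, for a difference of -0.19 ± 0.13 (adjusted p = 0.485).

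Hoxa10, which patterns the uterus and the lumbar spine, had 10.9, 5.79 and 7.90 on the KIAA1718 shRNA1 arrays, against 12.1, 8.34 and 15.6 on the luciferase shRNA arrays. With overlapping groups its difference was -0.21 ± 0.15 (adjusted p = 0.498), and -0.12 without luciferase replicate 3 to -0.31 without luciferase replicate 2. A dimmer Hoxa10 probe set, below the minimum, went the other way. It had 4.98, 1.80 and 7.21 on the KIAA1718 shRNA1 arrays, against 1.18, 1.51 and 0.87 on the luciferase shRNA arrays. Its groups did not overlap, as was the case in this direction for 11.8% of 18193 genes without the minimum. Its difference was 0.26 when fitted without the minimum. Hoxa11, a gene of the forearm and uterus, differed by -0.09. The members above 0 were Hoxa9, a gene of blood progenitors, at 0.09, Hoxa5, a gene of the lung and the neck, at 0.04, and Hoxa2, a gene of the hindbrain and the pharyngeal arches, at 0.02. Hoxa9 had 38.0 ± 2.81 in KIAA1718 shRNA1 cells and 34.7 ± 5.18 in luciferase shRNA cells (SD, n = 3 each), and its 95% interval ran from -0.19 to 0.38, its difference without 1 array from 0.013 to 0.16.

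The Hoxd cluster had the most members below the minimum, 5 of 8. Hoxd13, the tail-most Hoxd gene and a regulator of the digits, had 16.1, 18.8 and 19.0 on the KIAA1718 shRNA1 arrays, against 10.1, 15.6 and 17.7 on the luciferase shRNA arrays. It was the member furthest above 0, at 0.16 ± 0.14 (adjusted p = 0.582), with groups that overlapped. Its difference was 0.06 without luciferase replicate 1 and 0.24 without luciferase replicate 3. Hoxd9, active in the limbs and the lumbar cord, had 1.93, 5.49 and 9.54 on the KIAA1718 shRNA1 arrays, against 11.4, 2.58 and 16.5 on the luciferase shRNA arrays. The groups overlapped over most of their range, and the difference of -0.25 ± 0.21 (adjusted p = 0.568) ran from -0.49 without luciferase replicate 2 to -0.07 without luciferase replicate 3. Hoxd8 had 13.1, 14.8 and 11.3 on the KIAA1718 shRNA1 arrays, against 13.7, 21.2 and 14.7 on the luciferase shRNA arrays. Its difference was -0.16 ± 0.14 (adjusted p = 0.592), again with overlapping groups, and ran from -0.22 without luciferase replicate 1 to -0.06 without luciferase replicate 2.

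**Figure D3:**
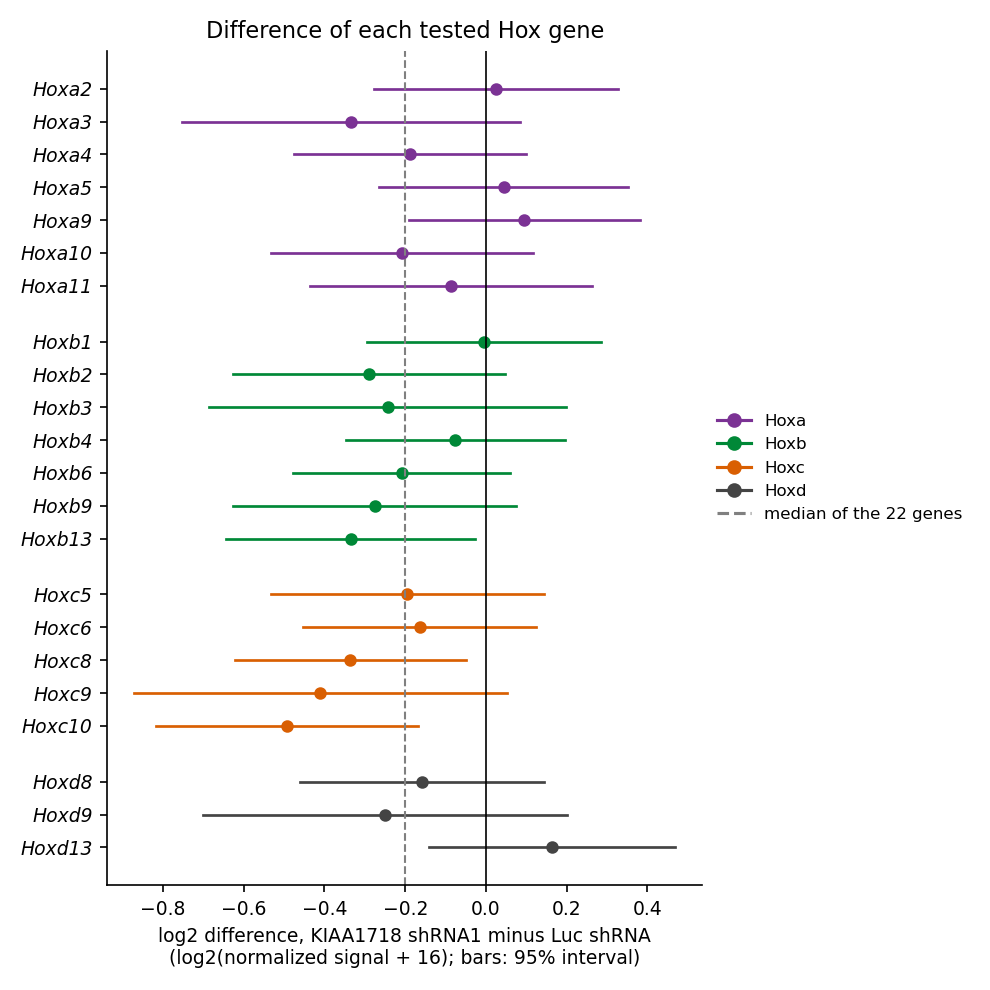
Log2 difference of each tested Hox gene, KIAA1718 shRNA1 minus luciferase shRNA (horizontal axis), with its 95% interval as a bar and the genes ordered by cluster and paralog group. The intervals of Hoxc10, Hoxc8 and Hoxb13 stay below 0 before adjustment for the number of tests, the other 19 cross it, and the dashed line is the median of -0.20.

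Sorted by paralog group instead of cluster, 4 of 5 anterior members (groups 1 to 3) and 7 of 8 central ones (groups 4 to 8) lay below 0. So did 7 of 9 posterior ones (groups 9 to 13), and the medians were -0.24, -0.18 and -0.25 in that order. The posterior members include Hoxc9 and Hoxd9, which passed the minimum through the luciferase shRNA arrays alone, and the posterior median is the value of Hoxd9. These counts and medians were not made over all 33 genes. Over all 22 genes the groups were separate in 6, each with the KIAA1718 shRNA1 arrays lower, and in none with them higher, where 13.4% and 14.5% of all genes were so. Over all 33 genes, with no minimum, they were separate and lower in 7, the further one being Hoxc4, and higher in none, where 11.0% and 11.8% of 18193 genes were so. KIAA1718 shRNA1 replicate 1 held the lowest signal of the 6 arrays for 12 of the 33, where it did so for 15.0% of the 18193 genes, and luciferase replicate 3 the highest for 12 of the 33, where it did so for 14.6%. The 95% intervals were wide for signals of this size, reaching from -0.87 at the lowest (Hoxc9) to 0.47 at the highest (Hoxd13).

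Further tested probe sets existed for 6 members, 7 in all, and 4 of the 7 had the sign of the brightest probe set. A further Hoxc6 probe set differed by -0.42 and a further Hoxd8 one by -0.34 (adjusted p = 0.169 and 0.187), each lower than the brightest probe set of its gene. Their groups did not overlap, as was the case in this direction for 13.4% of all tested genes. The Hoxd8 one passed the minimum through the luciferase shRNA arrays alone. The other Hoxc6 probe set lay at 0.12 and the second of Hoxb3 at 0.10, against -0.16 and -0.24 for the brightest ones. Both passed the minimum through the KIAA1718 shRNA1 arrays alone. The second of Hoxa5 lay at -0.09, against 0.04 for the brightest one. Those of Hoxa3 and Hoxa9 lay at -0.05 and 0.05. No member probe set of the 29 tested passed, the lowest adjusted p being that of Hoxc10.

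The 11 members below the minimum were Hoxa7, Hoxa13, Hoxb5, Hoxb7, Hoxc4, Hoxc13, Hoxd1, Hoxd3, Hoxd10, Hoxd11 and Hoxd12. Their normalized signals ran from 0.29 to 11.6. Fitted without the minimum, 7 of them lay below 0 and 4 above, from -0.39 for Hoxb5 to 0.14 for Hoxd12, and none passed. Hoxc4 had 1.23, 1.94 and 1.38 on the KIAA1718 shRNA1 arrays, against 6.09, 7.46 and 4.05 on the luciferase shRNA arrays. It had the lowest adjusted p of the 33 genes in that fit, 0.141, at signals where the arrays' precision is poorest. Hoxc4 was named after its values were seen.

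The mean level of the tested members was set beside that of fibroblast markers on each array. Embryonic fibroblasts, which are used as feeder cells for stem cells, are known to express Hox genes. The cells had been sorted for GFP, which feeder cells without the virus lack. The part of feeder cells in the Hox values was not tested. The fibroblast covariate used below differs between the groups itself, so that fit does not measure this part. The mean of the 22 tested Hox genes (log2) was 4.89, 4.98 and 4.94 on KIAA1718 shRNA1 replicates 1, 2 and 3, against 5.01, 5.15 and 5.19 on luciferase replicates 1, 2 and 3. The mean of 33 fibroblast markers was 7.12, 7.45 and 7.44 on the KIAA1718 shRNA1 arrays, against 7.24, 7.97 and 7.93 on the luciferase shRNA arrays. By these means replicate 1 was the lowest array of its group for both gene groups, and luciferase replicates 2 and 3 were the highest of the 6 arrays. Luciferase replicate 1 lay below KIAA1718 shRNA1 replicates 2 and 3 in the fibroblast markers and above them in the Hox genes. The median of the Hox genes was instead lowest on replicate 3 among the KIAA1718 shRNA1 arrays (4.86, 4.87 and 4.74 on replicates 1, 2 and 3). Among those arrays the Hoxa mean was highest on replicate 1 (5.07, 5.02 and 5.03), while the Hoxb, Hoxc and Hoxd means were lowest there. The summed normalized signal ran from 10358 to 13666 on the KIAA1718 shRNA1 arrays, against 10828 to 18371 on the luciferase shRNA arrays, for the fibroblast markers, and from 330 to 385 against 387 to 487 for the Hox genes.

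Of the 33 fibroblast markers 31 were below 0, where 49.8% of all genes were, with a median of -0.35. In the main fit 1 passed, lower, where 2.19% of all genes did. With the replicate number as a block 13 passed, all lower, where 3.78% of all genes did. Pdgfra, a growth factor receptor gene, fell to 7.43 ± 3.96 in KIAA1718 shRNA1 cells, against 22.0 ± 1.83 in luciferase shRNA cells (SD, n = 3 each, adjusted p = 0.0266), a call lost in 7 of 14 alternatives. The collagen gene Col1a1 had 106, 50.0 and 171 on the KIAA1718 shRNA1 arrays, against 140, 475 and 461 on the luciferase shRNA arrays, a difference of -1.53 (adjusted p = 0.0711, and 0.0178 with the block). Thy1 and Loxl1 differed by -0.62 and -0.74 (adjusted p = 0.0572 and 0.106, and 0.0430 and 0.00467 with the block). With the fibroblast mean as a covariate, the median of the Hox genes was -0.12, with 17 of 22 below 0, none passed and none had an unadjusted p below 0.05. Of the 22 genes 11 lay nearer to 0 in that fit, 8 lay further from it with the same sign and 3 changed sign. Hoxc10 lay at -0.31, Hoxc8 at -0.20, Hoxb13 at -0.30 and Hoxc9 at -0.06, all nearer to 0 than without the covariate, while Hoxa4 lay at -0.29, Hoxa10 at -0.27, Hoxb6 at -0.24 and Hoxd13 at 0.33, all further from 0 than without the covariate.

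**Figure D4:**
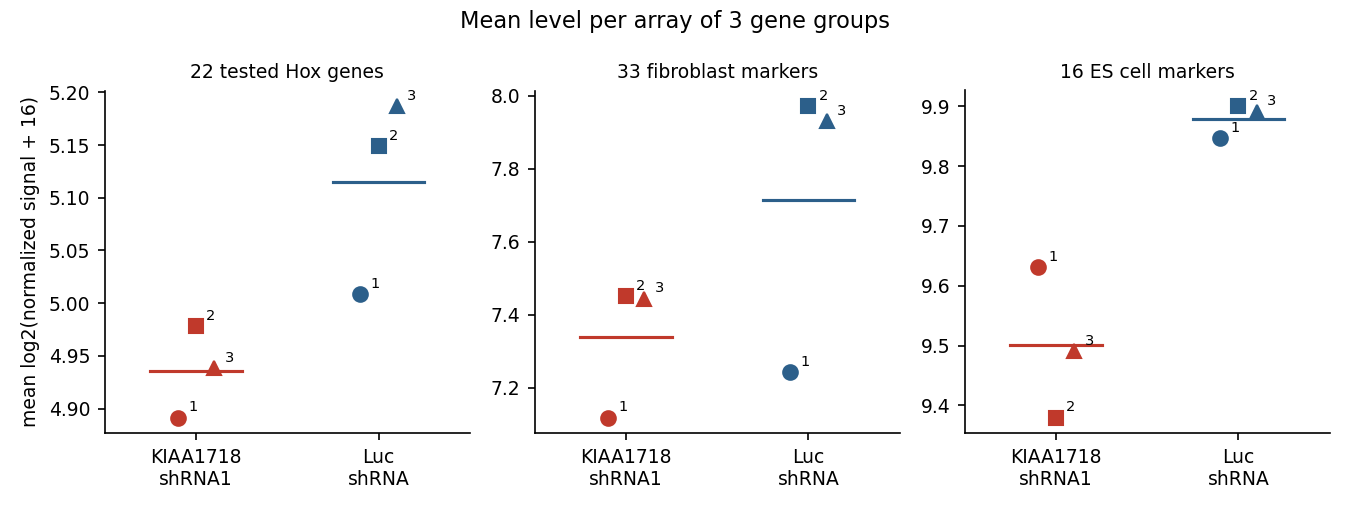
Mean log2(normalized signal + 16) on each array for the 22 tested Hox genes, 33 fibroblast markers and 16 embryonic stem cell markers, each panel on its own vertical scale, with the replicate number beside each point and a line at the group mean. Hox genes lie at 4.89 to 4.98 on the KIAA1718 shRNA1 arrays and at 5.01 to 5.19 on the luciferase shRNA arrays, and in the first 2 panels replicate 1 is the lowest array of each group.

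Early mesoderm and neural markers stand for other cell types known to express Hox genes, whose part in the Hox values was not tested. Of 9 tested early mesoderm markers 4 lay below 0, with a median of 0.01, near the 0.00113 of all tested genes. Pdgfra, which is also in the fibroblast list, was the 1 that passed, where 4.87% of all genes did. The streak gene Mixl1 differed by 0.38 (limma adjusted p = 0.155). Of 6 tested hindbrain and spinal cord markers 2 lay below 0, with a median of 0.13, and none passed (limma, none at an unadjusted p below 0.05); Sox1 differed by -0.29 (adjusted p = 0.318) and Tubb3 by 0.22 (adjusted p = 0.438). Among the 16 embryonic stem cell markers, 15 were below 0 and 5 passed, all lower, with a median of -0.24, where 2.19% of all genes passed and were lower. Those 5 were Tfcp2l1 at -1.22, Esrrb at -1.16, Klf4 at -0.91, Fgf4 at -0.72 and Utf1 at -0.44 (limma adjusted p = 0.00960, 0.00400, 0.00122, 0.00334 and 0.0243). Pou5f1 differed by -0.15, Sox2 by -0.08 and Nanog by -0.42 (adjusted p = 0.386, 0.550 and 0.158, the last 0.0495 with the block).

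The partners and regulators of Hox genes were mostly without a call. TALE homeodomain proteins bind DNA together with Hox proteins. None of the 7 tested Pbx, Meis and Pknox genes passed, in the main fit or with the block. In the main fit 2 had an unadjusted limma p below 0.05, as did 22.0% of all genes. Pknox1 differed by 0.45 (adjusted p = 0.0916) and Pbx2 by -0.28 (adjusted p = 0.244). The activator list comprises Cdx factors, retinoic acid genes and trithorax group genes. Of its 20 tested genes 1 rose, 2 fell and 17 did not pass, where 4.87% of all genes passed, and the median was -0.18. The gene that rose, Cyp26a1, breaks down retinoic acid and is not itself an activator.

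Cyp26a1, which breaks down retinoic acid and is itself induced by it, had 19.9, 46.8 and 34.8 on the KIAA1718 shRNA1 arrays, against 13.2, 8.73 and 11.1 on the luciferase shRNA arrays. It rose in all 3 arrays above all luciferase shRNA arrays, by 0.85 ± 0.19 (adjusted p = 0.0323), the call being lost in 7 of 16 alternatives. Wdr5 and Rbbp5, core subunits of the complexes that methylate lysine 4 of histone H3, fell by 0.40 ± 0.09 and by 0.44 ± 0.10 (adjusted p = 0.0306 and 0.0356). Wdr5 had 355 ± 13.5 in KIAA1718 shRNA1 cells and 474 ± 9.93 in luciferase shRNA cells (SD, n = 3 each), and each of the 2 genes lost its call in 10 of 16 alternatives.

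Of 20 Polycomb genes, which keep Hox clusters silent, 1 fell and 19 did not pass, where 4.87% of all genes passed. Their median was -0.08. Ring1, a ubiquitin ligase that acts on histone H2A, had 26.0, 25.2 and 22.3 on the KIAA1718 shRNA1 arrays, against 46.0, 53.0 and 35.0 on the luciferase shRNA arrays. The groups were apart, at -0.57 ± 0.14 (adjusted p = 0.0481), a call lost in 12 of 16 alternatives. Ezh1, a methyltransferase for lysine 27 of histone H3, differed by 0.44 (adjusted p = 0.0727, and 0.0498 with the block).

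Among 21 tested genes beside the clusters the median was -0.04, where the tested Hox genes had -0.20. Of these 21 genes 1 rose and 20 did not pass, where 4.87% of all genes passed. The one was Cbx1, a heterochromatin protein gene on the chromosome of the Hoxb cluster, with 756 ± 64.1 in KIAA1718 shRNA1 cells and 517 ± 58.1 in luciferase shRNA cells (SD, n = 3 each), a difference of 0.54 ± 0.10 (adjusted p = 0.0170, lost in 6 of 16 alternatives). Atf2, on the chromosome of the Hoxd cluster, differed by 0.34 (adjusted p = 0.169). Of 6 tested homeobox genes of the same broad class outside the clusters 5 lay below 0 and 1 passed. Of all tested genes 49.8% and 4.87% did so. The gene that passed was Gbx2, a gene of the midbrain-hindbrain border that stem cells also express. It fell by 0.55 ± 0.12 (limma adjusted p = 0.0338, lost in 9 of 16 alternatives). Cdx2, a direct activator of Hox genes, differed by 0.31 (adjusted p = 0.357).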

How the data were processed

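Per the labels, RNA of R1 cells was hybridized to 6 arrays, 3 per group, with groups and replicate numbers from the sample titles. The deposited values are linear signal intensities per probe set made by the authors; the submitters' processing notes name GCOS, with no version or settings. No detection calls were used, and the number of arrays limits the precision. The 64 control probe sets were removed and the 45037 others quantile normalized between arrays, since trimmed mean signals (2% at either end) ran from 61.3 to 81.2. The dimmest 40% by mean signal were dropped, which left 27022. Differences of log2(signal + 16), a scale that understates changes of dim genes, went into limma 3.58.1 under R 4.3.3 (eBayes, trend by intensity; two-sided), adjusted by Benjamini-Hochberg over these probe sets and a threshold of 0.05.

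Of the probe sets, 34945 had 1 gene symbol in the array annotation, 932 several and 9160 none here; symbols were updated through Entrez numbers with RefSeq (GRCm38.p6). The Hox genes, the 9 gene lists and the settings were chosen with earlier results of these data known, so no list was tested as a set. Every Hox gene is named; array values are given for the 3 of each cluster with the smallest p. From the other lists up to 4 genes past the threshold with the largest change are named, or, where fewer than 2 passed, the 2 of smallest p; from the fibroblast list the 4 with the smallest p, with Col1a1 and Thy1 always; of stem cell markers Pou5f1, Sox2 and Nanog. Kdm7a, as the target, is named in addition. The 5 stem cell markers that passed and the dimmer Hoxa10 probe set were added after their values were seen.

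Both groups share replicate numbers. Deviations from group means correlated at 0.202, 0.124 and 0.129 between arrays of equal number, against -0.150 to 0.0246 otherwise. No label says what the numbers mark, so the main fit has no block and the replicate block is an alternative. Its pairing was read from the same data as its p-values. Blocked values stand where they change a call. No pair of arrays held identical values. Tested on simulated data of this comparison (27022 probe sets), the fit recovered 13.4% of changes of 0.5 (log2), 61.2% of those of 1 and 87.9% of those of 1.5, with 13 false calls among 121. Alternatives were the scaling, pseudocount, filter, probe sets per gene, intensity trend, replicate block, fibroblast covariate and leaving out each array.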

Additional observations from a re-analysis of the deposited data

How the results depend on the processing

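No Hox gene passed in any of the 16 alternatives; the lowest adjusted p was that of Hoxc10 without luciferase replicate 1, 0.0502. The median of the tested Hox genes was -0.34 with a pseudocount of 4 and -0.074 with one of 64, since the pseudocount exceeds many of their signals, and -0.21 to -0.14 without 1 array. It was -0.12 with unscaled values, where all genes had a median of 0.11, and 81.2% of changed genes were higher, against 55.0% after normalization. With 60% of probe sets left out, 6 members were tested and 4 lay below 0; without 1 array 17 to 19 of 22 did. The replicate block left the number of Hox genes past the threshold at 0 and changed no call of a Hox gene. The count of changed genes was 367 with unscaled values, 197 without a filter, 388 without an intensity trend, 1000 with the replicate block and 208 with the fibroblast covariate. It was 161 without luciferase replicate 3, 203 without KIAA1718 shRNA1 replicate 3, 291 without luciferase replicate 2, 332 and 398 without KIAA1718 shRNA1 replicates 2 and 1, and 525 without luciferase replicate 1. Of the 22 tested Hox genes, 17 kept their sign throughout. The others were Hoxa11 (0.010 unscaled, 0.15 with the fibroblast covariate, -0.22 to 0.023 without 1 array), Hoxb1 (0.079 unscaled, 0.018 with a common trimmed mean, -0.068 to 0.059 without 1 array), Hoxa5 (-0.021 as the mean of its probe sets, -0.065 to 0.12 without 1 array), Hoxa2 (-0.026 with the fibroblast covariate, -0.075 to 0.087 without 1 array) and Hoxb3 (0.023 with the fibroblast covariate). Sox2 also turned, to 0.018 unscaled. The cause of these changes was not tested.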

Other observations

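Probe sets that name several Hox genes or an opposite-strand transcript were outside the 33 genes, 8 in all, and 2 of them had enough signal to be tested. The one shared by Hoxb8 and Hoxb7 had a normalized signal of 7.88, 16.1 and 7.65 on the KIAA1718 shRNA1 arrays, against 3.76, 22.9 and 11.5 on the luciferase shRNA arrays, and differed by -0.07 (limma adjusted p = 0.901). Hoxb5os, transcribed opposite to Hoxb5, had 30.3, 12.6 and 10.7 on the KIAA1718 shRNA1 arrays, against 12.7, 24.5 and 20.1 on the luciferase shRNA arrays, and differed by -0.08 (adjusted p = 0.878). In both, the arrays of a group were further apart than the groups. The other 6, for Hoxa11os, Hoxd3os1 and the pair Hoxd4 and Hoxd3, lay below the minimum, with signals from 0.12 to 12.3.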
